A study of Mus musculus with 16 samples.

Results

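The receptors of noradrenaline and adrenaline are a family of G protein-coupled receptors, and 8 of their genes are described here, Adra1a, Adra1b and Adra1d (α1 receptors), Adra2a, Adra2b and Adra2c (α2 receptors) and Adrb1 and Adrb3 (β receptors). They were taken by symbol from tables that hold the same 24060 genes for each of 16 RNA sequencing libraries. The rule used no measured value, but earlier results of these data were known when the members were chosen. The mice were C57BL/6J animals of 3 months with the genotype Aldh1l1CreERT2-RiboTag, injected with tamoxifen at 2 months. Tamoxifen switches on Cre in cells that use the Aldh1l1 promoter, which are mainly astrocytes, and those cells then build an HA-tagged ribosomal protein into their ribosomes. RNA came from the somatosensory cortex of naïve mice, which stayed in the home cage, and of stressed mice, which swam for 20 min and recovered for 90 min. The IP libraries hold the RNA pulled down with an antibody against HA, the INPUT libraries hold the RNA of all cells in the cleared lysate, and each fraction was sequenced from naïve and from stressed mice, with 4 libraries in each of the 4 groups. All 4 groups carried the same alleles and had tamoxifen, so none shows the cortex without them. The labels place the experiment 1 month after tamoxifen and the study's methods place it 2 weeks after the last injection.

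Noradrenaline reaches the cortex from neurons of the locus coeruleus and is released during arousal and stress. The α1 receptors couple mainly to Gq proteins, which activate phospholipase C and release calcium through IP3 receptors. The α2 receptors couple to Gi and Go proteins and lower cyclic AMP, and the β receptors couple to Gs proteins and raise it. In astrocytes the α1 receptors are known for the calcium rise that follows noradrenaline release, and β receptors for the breakdown of glycogen.

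The genes lie apart in the mouse genome (GRCm38, GENCODE M21 annotation), with Adra1a at chr14:66635251-66771168 and Adra2c at chr5:35278319-35281763 on the plus strand and Adra1b at chr11:43774606-43901210 on the minus strand. Adra1d (chr2:131545850-131562283, minus strand) and Adra2b (chr2:127363208-127367221, plus strand) share a chromosome, as do Adra2a (chr19:54044151-54048982) and Adrb1 (chr19:56722199-56733113), both on the plus strand. Adrb3 is at chr8:27225776-27250616 on the minus strand. Because the genes are related in sequence, the longest stretch that 2 coding sequences share bears on whether a read can match both of them exactly. The 6 longest are shown here 5′ to 3′ on the coding strand, with every base identical in both genes.
Adrb1 and Adrb3: tgctggctgcccttcttcctggccaacgtg
Adra2a and Adra2c: gagtacaacctgaagcgcacgccgcg
Adra2b and Adra2c: tccatcgtgcacctgtgtgccat
Adra1a and Adra1d: aggctgctcaagttttcccg
Adra1b and Adra1d: ttctggctgggctacttcaa
Adra2a and Adra2b: atctacaccatcttcaacca
The first of these, of 30 bases, lies at chr19:56723344-56723373 in Adrb1 and at chr8:27227490-27227519 in Adrb3, and it was the longest in any of the 28 pairs of receptor genes. The reads were 69 bases long, more than any shared stretch. This covers exact matches only, and reads placed with mismatches were not examined. The exons of Adra1d overlap the antisense gene Gm14285 by 147 bases and those of Adrb3 overlap the antisense gene Gm45470 by 839 bases. Whether strand was used in counting is not stated, so reads of these partners could not be told from reads of the receptors.

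Between 16392876 and 25814364 reads were counted on genes per library. Levels are in CPM, the reads on a gene after scaling the reads on all genes of its library to 1000000, and 3 reads corresponded to at most 0.183 CPM. The IP libraries were enriched in astrocyte RNA: all 7 astrocyte markers were higher in naïve IP than in naïve INPUT (729% to 1753% of the INPUT mean), and the 7 neuronal, 6 oligodendrocyte lineage and 5 microglial markers, and the 5 tested of 6 endothelial and mural cell markers, were lower (limma, Benjamini-Hochberg adjusted p under 0.05). RNA of other cells remained, since none of these markers was at 0 reads and the neuronal markers in naïve IP were at 3.76% to 6.89% of their INPUT level, the microglial ones at 5.18% to 14.8%, those of endothelial and mural cells at 6.18% to 33.8% and those of the oligodendrocyte lineage at 6.71% to 34.2%. Read counts from bulk tissue cannot tell fewer cells of a type from less RNA per cell.

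Among the receptors, Adra1a was the 1 gene that was higher in astrocyte ribosome-bound RNA than in whole cortex of naïve mice, at 1.89 times its INPUT level. Adra1b, Adrb1, Adra2c and Adra1d were lower in IP, the last of them 17.2 times. Adra2a was present at similar CPM in both, Adra2b was almost absent from both, and Adrb3 was almost absent from IP. Of the 6 receptor genes with a mean above 1 CPM, which was required for the test, 1 was higher and 4 were lower in IP at an adjusted p under 0.05. Over all 13339 genes tested, 23.7% were higher and 64.0% were lower, and the median log2 ratio was −0.64, against −1.78 for the 6 receptor genes. That split rests on scaling by the library total: with median-ratio scaling 5715 genes were higher and 5509 lower, so the log2 ratios of the receptor genes are also given relative to the median of all genes. In 5 of the 6 receptor genes the values of the fractions did not overlap, as in 83.7% of all genes tested.

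**Figure D1:**
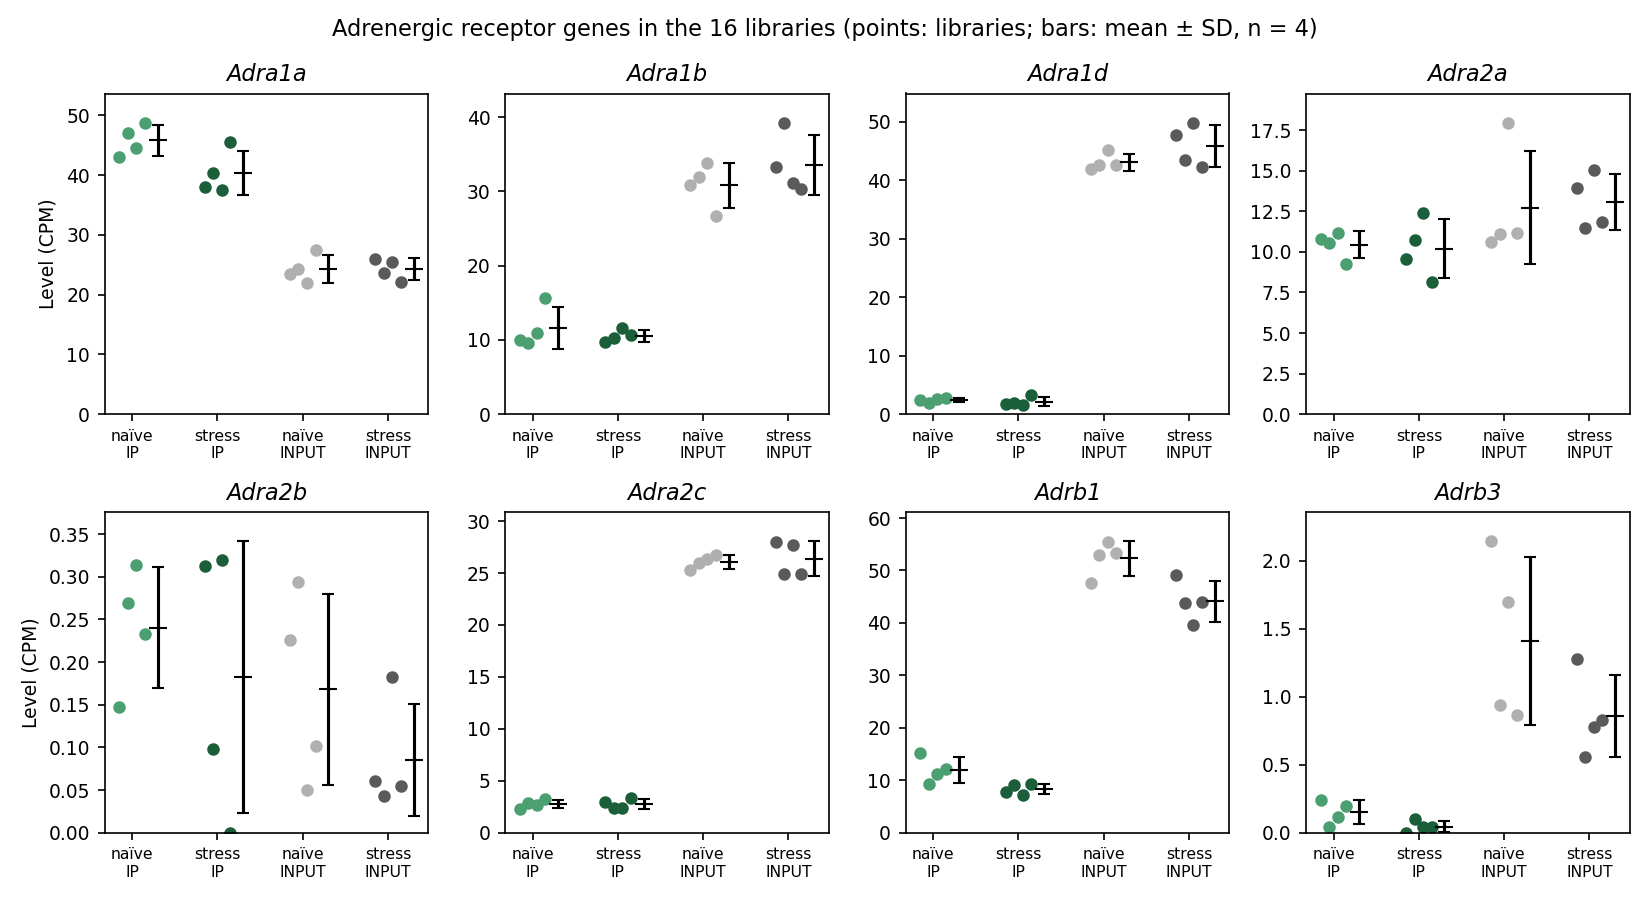
Level of each receptor gene in CPM (vertical axes, each starting at 0 and with its own scale) in every library of the 4 groups, with the mean and SD of 4 libraries as bars. All 8 IP libraries of Adra1a lie above all 8 INPUT libraries, those of Adra1b, Adra1d, Adra2c, Adrb1 and Adrb3 lie below them, and the fractions overlap for Adra2a and Adra2b.

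The α1 receptors differed most from each other. Adra1a was at 43.0, 44.5, 47.1 and 48.8 CPM in the naïve IP libraries and at 22.0, 23.4, 24.4 and 27.5 CPM in naïve INPUT. The lowest IP library was thus well above the highest INPUT library. Its log2 ratio was 0.91 ± 0.08 (SE; limma, Benjamini-Hochberg adjusted p = 1.03e-07), which is 1.55 above the median of all genes, and 86.4% of the genes tested had a lower ratio. It remained below the astrocyte markers, whose log2 ratios ran from 2.87 to 4.13.

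Adra1b was at 9.63, 9.99, 11.0 and 15.7 CPM in naïve IP and at 26.6, 30.8, 31.9 and 33.9 CPM in naïve INPUT. The fractions did not overlap, and 1 naïve IP library, replicate 13, was above the other 3. Its log2 ratio was −1.43 ± 0.14 (SE; limma, adjusted p = 3.43e-07), or −0.79 relative to the median of all genes. On average its IP level was 37.5% of INPUT.

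Adra1d, also coupled to Gq, was at 41.8 to 45.1 CPM in naïve INPUT and at 1.88, 2.50, 2.58 and 2.75 CPM in naïve IP. Its log2 ratio of −4.11 ± 0.12 (SE; limma, adjusted p = 7.60e-13) was the lowest of the 6 receptor genes tested, −3.47 relative to the median of all genes, and 1.18% of the genes tested had a lower one. The IP level was 5.64% of INPUT, inside the 3.76% to 6.89% of the neuronal markers, 4 of which had a smaller percentage. No other receptor gene fell within that range in naïve mice.

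The α2 receptors were low in IP or did not differ. Adra2a, known both as an autoreceptor on noradrenaline neurons and as a receptor on their target cells, was at 9.26, 10.5, 10.8 and 11.2 CPM in naïve IP and at 10.6, 11.1, 11.2 and 18.0 CPM in naïve INPUT. The ranges overlapped, and the highest INPUT library, replicate 14, stood apart from the others. The log2 ratio was −0.25 ± 0.15 (SE), with a 95% interval of −0.58 to 0.08 (limma, adjusted p = 0.136), and it was −0.07 without replicate 14. Relative to the median of all genes it was 0.39 higher, and with median-ratio scaling it was itself positive, at 0.41 (adjusted p = 0.0251).

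Adra2c, the other α2 receptor with a level that could be tested, was at 2.25, 2.66, 2.91 and 3.22 CPM in naïve IP and at 25.2 to 26.8 CPM in naïve INPUT. The INPUT libraries were within 2 CPM of each other. The log2 ratio was −3.20 ± 0.12 (SE; limma, adjusted p = 8.90e-12), a 9.22-fold lower level and −2.57 relative to the median of all genes, and IP held 10.6% of the INPUT level. That percentage is inside the ranges of the microglial (5.18% to 14.8%), endothelial and mural (6.18% to 33.8%) and oligodendrocyte lineage markers (6.71% to 34.2%). How much of the Adra2c reads in IP came from RNA of other cells was not tested. Adra2b had 3, 6, 6 and 8 reads in the naïve IP libraries and 1, 2, 4 and 5 reads in naïve INPUT, at most 0.313 CPM. At these counts no difference between the fractions was detectable, and no fold is given.

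The β receptor Adrb1 had the highest CPM of the 8 genes in naïve INPUT, at 47.7, 52.9, 53.3 and 55.4 CPM. In naïve IP it was at 9.36, 11.1, 12.1 and 15.3 CPM, and the fractions were far apart. Its log2 ratio was −2.14 ± 0.12 (SE; limma, adjusted p = 1.09e-09), −1.50 relative to the median of all genes, and IP held 22.9% of the INPUT level. This is above every neuronal marker and inside the ranges of the endothelial and mural (6.18% to 33.8%) and oligodendrocyte lineage markers (6.71% to 34.2%). How much of the Adrb1 reads in IP came from RNA of other cells was not tested.

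Adrb3, best known as the β receptor of fat cells, had 1, 3, 5 and 5 reads in the naïve IP libraries and 16, 17, 34 and 38 reads in naïve INPUT. It was at 0.0448 to 0.245 CPM in IP and at 0.865 to 2.15 CPM in INPUT, so every IP library was below every INPUT library (p = 0.0286 by exact permutation, two-sided, a value that 4 against 4 libraries cannot go below). Its mean over these libraries was under 1 CPM and it was left out of the fit across genes. The IP counts are close to the 3 reads taken as the depth floor.

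The same order held in stressed mice. Of the 6 receptor genes tested, 1 was higher and 5 were lower in stress IP than in stress INPUT, beside 23.6% and 62.5% of the 13333 genes tested, whose median log2 ratio was −0.63. Adra1a was at 37.5 to 45.5 CPM in stress IP and at 22.1 to 26.0 CPM in stress INPUT (log2 ratio 0.73 ± 0.09, SE; limma, adjusted p = 4.81e-06). The log2 ratios were −1.65 ± 0.10 for Adra1b, −2.39 ± 0.11 for Adrb1, −3.21 ± 0.13 for Adra2c and −4.43 ± 0.19 for Adra1d, with adjusted p at or below 7.82e-09 for each. Relative to the median of all genes, Adra1a was at 1.36, Adra1b at −1.02, Adrb1 at −1.76, Adra2c at −2.58 and Adra1d at −3.79. None of these 5 genes had overlapping fractions, and 81.4% of all genes tested had none either.

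The added call was Adra2a, at 8.16, 9.54, 10.7 and 12.4 CPM in stress IP and 11.4, 11.9, 13.9 and 15.1 CPM in stress INPUT. The ranges overlapped, and the log2 ratio of −0.36 ± 0.14 (SE; limma, adjusted p = 0.0308) was 0.27 above the median of all genes. The call was lost without stress IP replicate 4 (adjusted p = 0.0693), stress IP replicate 15 (0.0883), stress INPUT replicate 1 (0.0734) or stress INPUT replicate 10 (0.0968). With median-ratio scaling the log2 ratio was 0.28, in the other direction. The direction for Adra2a therefore depends on how libraries are scaled, which was not so for the other 5 genes.

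**Figure D2:**
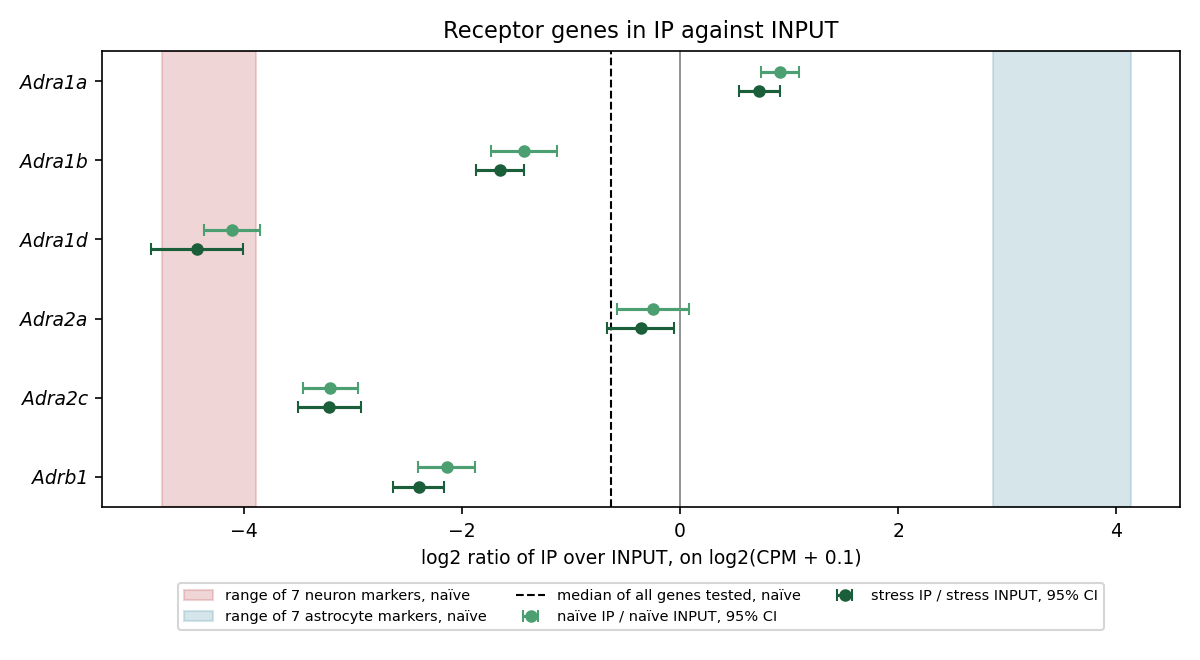
Log2 ratio of IP over INPUT (horizontal axis, on log2(CPM + 0.1)) with its 95% interval for the 6 receptor genes tested, in naïve and stressed mice, with the median of all genes as a dashed line and the ranges of 7 neuronal and 7 astrocyte markers shaded. Adra1a lies to the right of 0 at 0.91 and 0.73, and Adra1d lies in the neuronal range at −4.11 and −4.43.

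Between genes, levels were compared per length, as CPM divided by the gene length in kilobases (FPKM), with the union of annotated exons as the length. In naïve IP the order was Adra1a (5.25 ± 0.30 FPKM, SD, n = 4), Adrb1 (3.54 ± 0.73), Adra1b (3.42 ± 0.83), Adra2a (2.16 ± 0.17), Adra1d (1.28 ± 0.20) and Adra2c (0.801 ± 0.118), with Adra2b (0.060) and Adrb3 (0.044) last. Adrb1 and Adra1b overlapped, as did Adra2b and Adrb3, and the other neighbours were apart. In naïve INPUT the order was another one: Adra1d came first (22.7 ± 0.76 FPKM), then Adrb1 (15.5 ± 0.97), Adra1b (9.11 ± 0.90), Adra2c (7.57 ± 0.19), Adra1a (2.79 ± 0.27) and Adra2a (2.63 ± 0.72), the last 2 of these overlapping. The order in stress INPUT was the same as in naïve INPUT, and in stress IP Adra1b and Adrb1 had changed places.

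Summed over the 8 genes, the receptors were at 16.6 ± 1.3 FPKM in naïve IP and 60.7 ± 2.7 FPKM in naïve INPUT. Adra1a made up 31.8% ± 2.7 of that sum in naïve IP (29.5% to 35.7%) and 4.61% ± 0.57 in naïve INPUT (3.90% to 5.29%). Adra1d made up 7.70% ± 0.80 in naïve IP and 37.4% ± 0.49 in naïve INPUT. These are the members whose shares moved most between the fractions, and their ranges were far apart.

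Adra2a took 13.2% ± 1.8 of the sum in naïve IP and 4.31% ± 0.97 in naïve INPUT, and Adra2c took 4.85% ± 0.71 and 12.5% ± 0.49. Adra1b took 20.5% ± 3.5 and 15.0% ± 1.2, and Adrb1 took 21.3% ± 3.9 and 25.5% ± 0.95. The classes differed less than their members. The 3 α1 genes together made up 60.0% ± 3.8 in naïve IP and 57.0% ± 0.97 in naïve INPUT, the α2 genes 18.4% ± 2.0 and 16.9% ± 0.56, and the β genes 21.6% ± 4.0 and 26.2% ± 0.65, and the ranges of all 3 classes overlapped between the fractions. For the α1 and β genes the overlap came through naïve IP replicate 2 alone, at 55.0% and 27.5%. The remaining naïve IP libraries were at 59.9% to 64.1% for α1, above INPUT (56.1% to 58.2%). For β they were at 18.4% to 20.5%, below INPUT (25.3% to 26.9%).

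The length used for Adra1a bears on these shares. Its annotated exons span 8728 bases over 6 transcripts, but the longest transcript has 4282. With the longest transcript as the length Adra1a was at 10.7 ± 0.60 FPKM in naïve IP and made up 47.5% ± 3.2 of the sum there and 8.62% ± 1.0 in naïve INPUT. The α1 share was then 68.4% ± 3.4 (63.7% to 71.3%) in naïve IP and 56.9% ± 0.95 (56.0% to 58.1%) in naïve INPUT, with no overlap, and the α2 and β shares no longer overlapped either, both being lower in IP. By both lengths Adra1a ranked 1 in IP and 5 in INPUT among the 8 genes.

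**Figure D3:**
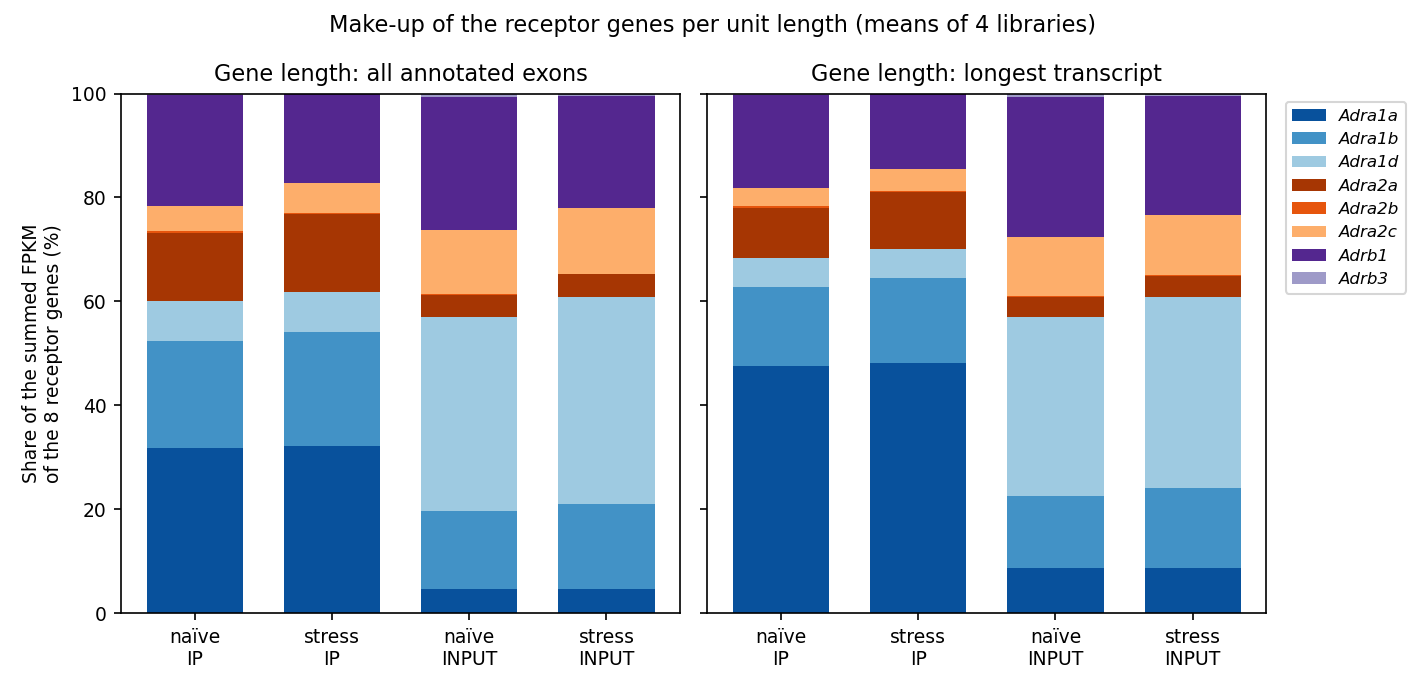
Share of the summed FPKM of the 8 receptor genes (vertical axis, %, means of 4 libraries) taken by each gene in the 4 groups, with the union of exons (left) or the longest transcript (right) as gene length. Adra1a takes 31.8% or 47.5% in naïve IP, and Adra1d is the largest part of naïve INPUT by both lengths.

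Swim stress, 90 min after its end, changed no receptor gene past the adjusted threshold in either fraction. In IP, 0 of the 6 receptor genes tested passed (limma, Benjamini-Hochberg), where 0.44% of all 12501 genes did. An unadjusted p under 0.05 was found for 2 of the 6, Adra1a and Adrb1, and for 1034 of all 12501 genes. In INPUT, 0 of 7 passed, where 0.0442% of 13577 genes did. There an unadjusted p under 0.05 was found for 1 of the 7, Adrb1, and for 683 of all 13577 genes.

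Adrb1 had the largest stress difference of the 6 receptor genes tested in IP. It was at 9.36, 11.1, 12.1 and 15.3 CPM in naïve IP and at 7.17, 7.80, 9.12 and 9.28 CPM in stress IP, so that every stress library was below every naïve library. It was the 1 member without overlap, and 2.62% of all genes tested in IP had no overlap with lower values after stress. The log2 ratio was −0.50 ± 0.15 (SE), a fold of 0.707 with a 95% interval of 0.564 to 0.886 (unadjusted p = 0.00584 and adjusted p = 0.307 by limma, p = 0.0286 by two-sided exact permutation test). It ran from −0.61 to −0.38 over the alternatives, with adjusted p from 0.0601 to 0.712, the smallest of them with all 16 libraries in one model.

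In INPUT, Adrb1 was at 47.7, 52.9, 53.3 and 55.4 CPM in naïve and at 39.6, 43.8, 44.1 and 49.2 CPM in stressed mice. These values overlapped by 1 library, and 1.44% of all genes tested in INPUT had no overlap with lower values after stress, none of them a receptor gene. The log2 ratio was −0.25 ± 0.08 (SE), a fold of 0.844 with a 95% interval of 0.754 to 0.944 (unadjusted p = 0.00608 and adjusted p = 0.605 by limma). The difference between the stress effects in IP and in INPUT was −0.25 ± 0.17 (SE; unadjusted p = 0.155), and no receptor gene passed that test, which 0.0225% of 13341 genes did. The adjusted p of all 6 receptor genes was 1.00 there.

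Beside these values, the summed CPM of the 7 neuronal markers was 361 to 515 in stress IP and 439 to 571 in naïve IP, with a median log2 ratio of −0.25 and 0 of 7 past the threshold. In INPUT the median log2 ratio of the same markers was −0.02. The median log2 ratio of stress over naïve in IP was −0.25 for the 6 oligodendrocyte lineage markers, −0.31 for the 3 microglial markers tested and −0.42 for the 3 endothelial and mural cell markers tested, none past the threshold. The part of RNA from these cells in the Adrb1 difference in IP was not tested. Of the 7 astrocyte markers, 1, Sox9, a transcription factor of astrocytes, was lower in stress IP (203 ± 21 CPM) than in naïve IP (319 ± 30 CPM; SD, n = 4; log2 ratio −0.65, limma, adjusted p = 0.00621).

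Adra1a was at 37.5, 38.0, 40.3 and 45.5 CPM in stress IP, against 43.0 to 48.8 CPM in naïve IP. The groups overlapped through 1 stress library, replicate 15. The log2 ratio was −0.19 ± 0.08 (SE), a fold of 0.879 with a 95% interval of 0.782 to 0.987 (unadjusted p = 0.0325 and adjusted p = 0.553 by limma). In INPUT it was at 24.3 CPM on average in both naïve and stressed mice, with a 95% interval of the fold of 0.877 to 1.14.

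For the other members the intervals set how large a change could have gone unseen. In IP the 95% interval of the fold was 0.746 to 1.16 for Adra1b, 0.796 to 1.18 for Adra2a, 0.766 to 1.32 for Adra2c and 0.592 to 1.22 for Adra1d, which had 33 to 81 reads per library there. In INPUT it was 0.941 to 1.25 for Adra1b, 0.958 to 1.18 for Adra1d, 0.907 to 1.12 for Adra2c and 0.827 to 1.32 for Adra2a. Adrb3 was at 0.865 to 2.15 CPM in naïve INPUT and at 0.555 to 1.28 CPM in stress INPUT (fold 0.653, 95% interval 0.398 to 1.07, unadjusted p = 0.0851 by limma). Adra2b had 0 to 7 reads in the stress IP libraries and 1 to 4 in stress INPUT, and Adrb3 had 0 to 2 in stress IP, too few to show a change.

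**Figure D4:**
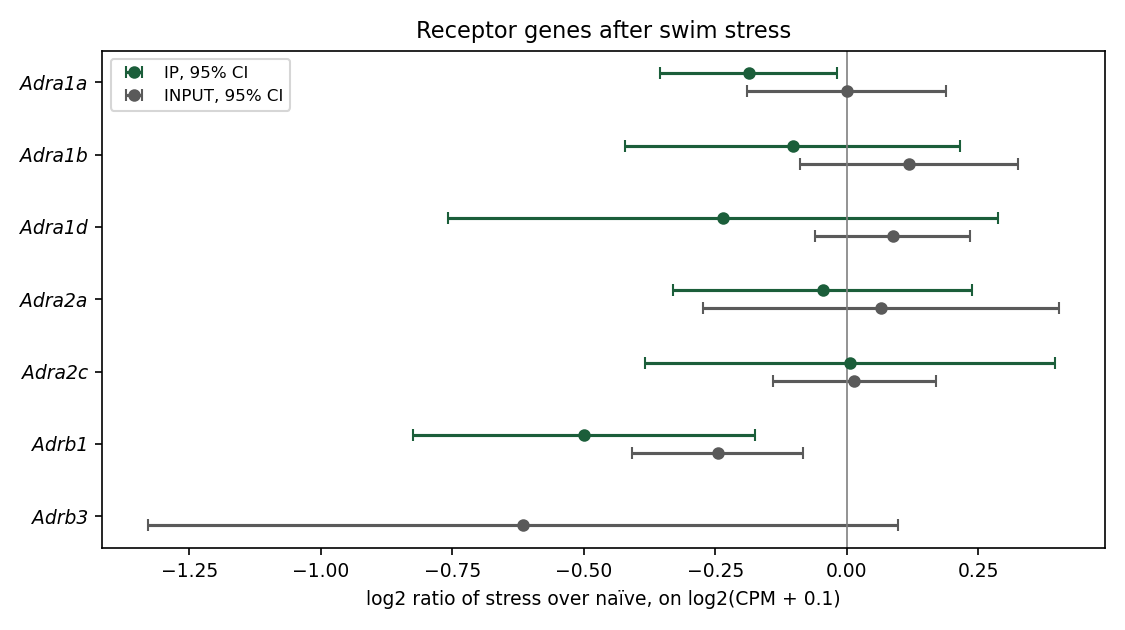
Log2 ratio of stress over naïve (horizontal axis, on log2(CPM + 0.1)) with its 95% interval for the receptor genes tested in IP and in INPUT. The intervals of Adrb1 lie below 0 in both fractions, at −0.50 and −0.25, and that of Adra1a lies below 0 in IP at −0.19, but no adjusted p was under 0.05.

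Genes that act after the receptors were read from the same fits. In naïve mice 7 of the 8 lists had members called in both directions, beside 23.7% of all genes higher and 64.0% lower in IP. After stress no member of any of the 8 lists passed the threshold in IP or INPUT, where 0.44% and 0.0442% of all genes tested did. Among the G protein α subunits, 3 of 8 tested were higher in IP and 5 lower. The higher ones were Gnao1 (Go; log2 ratio 2.01), Gnai2 (1.35) and Gnai3 (1.32), and the lowest were Gnai1 (−2.91), Gnaz (−2.75) and Gnas (−0.90). Members of the Gi and Go family, to which α2 receptors couple, thus stood at both ends, and Gnas is the Gs subunit of β receptors. Gnaq, a Gq subunit of α1 receptors, had a log2 ratio of −0.28 and was lower, though not relative to the median of all genes. Gnaq does not stand for the whole Gq class, since the remaining tested member, also of that class, was lower than Gnaq. The median of the list was −0.54. With median-ratio scaling 4 of the 8 were higher and 3 lower.

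On the α1 branch, the median log2 ratio of the phospholipase C β and IP3 receptor list was −1.42, beside −0.64 for all genes. Of its 7 members, 2 were higher and 5 lower. The 2 were Itpr2, an IP3 receptor (IP mean 386 ± 34 against 33.2 ± 2.9 CPM; SD, n = 4; log2 ratio 3.54), and Plcb3, a phospholipase C (152 ± 2.0 against 14.9 ± 1.2 CPM; 3.34). Their ratios lay within the range of the astrocyte markers. Plcb1 followed at −0.65, near the median of all genes, and Itpr1 (−3.14), Plcb4 (−2.63) and Plcb2 (−2.05) were the lowest. Of the α1 receptors, Adra1a was also higher in IP, at 0.91, below the astrocyte markers, and Adra1b and Adra1d were lower.

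On the cyclic AMP branch the median log2 ratio was −1.84 for the adenylyl cyclases and −1.89 for the protein kinase A and Epac genes, beside −0.64 for all genes. Of 8 adenylyl cyclases tested, 1 was higher, Adcy2 (368 ± 18 against 220 ± 12 CPM; log2 ratio 0.74), and 7 were lower, the lowest being Adcy1 (−3.15), Adcy5 (−2.74) and Adcy7 (−2.14). Of the 8 protein kinase A and Epac genes, 1 was higher and 6 lower. The higher one was Rapgef3, which codes for Epac1, a cyclic AMP sensor (240 ± 20 against 25.2 ± 1.1 CPM; log2 ratio 3.24), while Prkar2a, a regulatory subunit of the kinase, was level at 0.01. The lowest were Prkar1b (−4.32), Prkar2b (−3.37) and Rapgef4 (−3.37), the gene of Epac2. All 3 cyclic AMP phosphodiesterases of family 4 that were tested were lower, with Pde4b (−0.18) nearest to level and higher instead with median-ratio scaling, which put 1 of the 3 above and 2 below.

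The receptor kinases and arrestins, which switch off active receptors, had 1 gene higher and 6 lower of 7. Arrb1, β-arrestin 1, was the higher one (639 ± 38 against 431 ± 8.1 CPM; log2 ratio 0.57), and Adrbk1, the β-adrenergic receptor kinase now called Grk2, was the lowest (−2.14). Of CREB and its coactivators, 1 of 6 was higher, Crtc3 (1.71), and 3 were lower, Crtc1 (−1.88), Sik1 (−1.86) and Creb1 (−1.22), while with median-ratio scaling 3 were higher and 3 lower. Sik1, a kinase that restrains these coactivators, had a log2 ratio of stress over naïve of 0.60 in IP (adjusted p = 0.101) and 0.59 in INPUT (adjusted p = 0.585 by limma).

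Of the 11 genes for making, taking up and breaking down noradrenaline, 5 were above the filter, 2 of them higher in IP and 3 lower, and with median-ratio scaling 3 were higher and 2 lower. The 2 were the monoamine oxidases Maob (198 ± 16 against 17.6 ± 1.3 CPM; log2 ratio 3.48) and Maoa (93.6 ± 3.0 against 26.2 ± 1.1 CPM; 1.84). The lowest were Slc29a4, a monoamine transporter (−2.63), and Ddc, an enzyme of monoamine synthesis (−2.18). The genes that mark noradrenaline neurons were near the depth floor, with Dbh at 2 reads in all naïve IP libraries together and 22 in naïve INPUT, and Slc18a2, the vesicle transporter, at 0 reads in naïve IP.

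**Figure D5:**
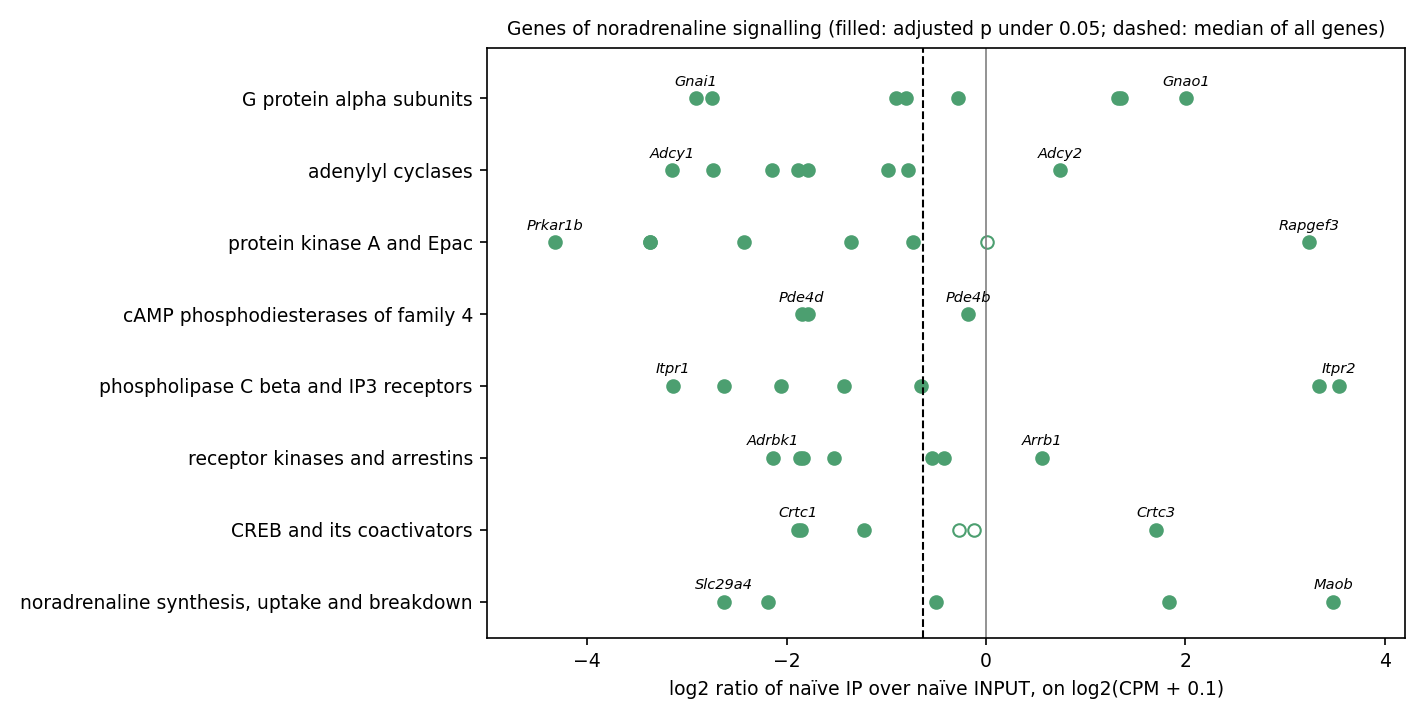
Log2 ratio of naïve IP over naïve INPUT (horizontal axis, on log2(CPM + 0.1)) for each tested gene of 8 lists (rows), filled where the adjusted p was under 0.05, with the gene of the lowest and highest ratio named in each list and the median of all genes dashed at −0.64. Itpr2, Plcb3, Rapgef3 and Maob lie above 3, and most adenylyl cyclases, kinase subunits and receptor kinases lie below 0.

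Over the 16 libraries, the genes whose levels followed each receptor most closely were found among 13340 genes, by Pearson's r of log2(CPM + 0.1). All of these points share the split into IP and INPUT, and r within a fraction was not computed. The closest to Adra1a were Rela (0.981), Pigt (0.980) and Ralgds (0.980), all higher in naïve IP than in naïve INPUT. Adra1d was followed by Kcnf1 (0.999), Camk2b (0.999) and Svop (0.999), and Adra2c by Paqr9 (0.999) and Trim37 (0.998), all 5 lower in naïve IP. Adrb1 was followed by Ccne1 (0.994), Frs3 (0.994) and Fam98c (0.992), and Adra1b by Rasip1, Ptp4a2 and Nkain1 (0.988 each). For Adra2a no gene had an r above 0.814, with Myg1 (0.796) and Shc1 (0.786) among the closest.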

How the data were processed

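Paired-end reads of 69 bases were made from total RNA after removal of ribosomal RNA. Per the labels and the study's methods, the authors aligned them to mm10 with STAR, counted uniquely mapped fragments on RefSeq genes with HTSeq and deposited 1 table per library of log2 CPM values, scaled by the library's own total, with no gene length. The values were whole reads (within 0.1 read) for 100% of genes in every library, the floor of −6.40 on the log2 scale standing for 0 reads. For 2 symbols there were repeated rows. Identical pairs of libraries numbered 0.

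Each comparison was fitted in R 4.3.3 by limma 3.58.1 (lmFit, then eBayes with trend). Values entered as log2(CPM + 0.1), genes needed more than 1 CPM on average, and p-values had Benjamini-Hochberg adjustment over all genes tested and a threshold of 0.05, on the 8 libraries compared or, for the difference of the stress effects, on all 16. The pseudocount understates fold changes of low genes. Single genes had two-sided exact permutation tests over 70 labelings, which cannot go below 0.0286. The methods describe male and female animals, homogenized individually, with an IP and an INPUT sample from each. The labels do not tie the fractions of a mouse, so libraries were treated as independent, and how the sexes fall into the groups is not given in the sources used here. Lengths and coordinates came from GENCODE M21, found for 98.3% of symbols. The RefSeq lengths used in counting were not used here. Tables used pandas 2.3.3 and NumPy 2.4.6 under Python 3.11.15, and matplotlib 3.10.9 drew the plots.

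The fit was tested on simulated data with known changes. Alternatives were other pseudocounts (1 and 0.01), other filters (none, a mean above 5 CPM or above 1 FPKM), median-ratio scaling, quantile normalization, array weights, no variance trend, voom weights for the whole reads, all 16 libraries in one model, each library left out, and the longest transcript as gene length. Genes named were the 8 receptors, the members of each list with the highest and lowest ratio of naïve IP over naïve INPUT, list members past the threshold after stress, and the genes of highest correlation with each receptor, some of which are not reported here. Members, lists and rules were chosen with earlier results of these data known. Depth was 16392876 to 25814364 reads per library (median 21167241); PCR copies of 1 molecule count as separate reads, and the floor of 3 reads covers counting error only.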

Additional observations from a re-analysis of the deposited data

Results flagged for a closer look

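Of 36 groups of 4 libraries checked for a library far from the other 3, 2 were found, where chance gives about 1 in 20 groups (1.8 of 36). Adra2a was at 18.0 CPM in naïve INPUT replicate 14, where the remaining 3 libraries ran from 10.6 to 11.2 CPM. Adra2b was at 0.183 CPM (4 reads) in stress INPUT replicate 10 and at 0.0427 to 0.0610 CPM (1 read each) in the other stress INPUT libraries.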

How the results depend on the processing

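The 5 receptor genes Adra1a, Adra1b, Adra1d, Adra2c and Adrb1 kept their direction and their call between IP and INPUT under all 19 alternatives in naïve and in stressed mice, and 0 receptor genes passed the threshold after stress under any alternative in which they were tested. Adra2a between IP and INPUT turned to 0.41 (naïve, adjusted p = 0.0251) and 0.28 (stress, 0.0571) with median-ratio scaling and to 0.44 (naïve, 0.0196) and 0.33 (stress, 0.0341) with quantile normalization, where the median log2 ratio of all genes moved from −0.64 to 0.03 and 0.01 in naïve mice. With array weights its call in stressed mice was lost (−0.28, adjusted p = 0.0692). Small stress differences with no call changed sign: with array weights Adra2a in IP (0.0511), Adra2c in IP (−0.0804) and Adra2c in INPUT (−0.00275), and with quantile normalization Adra1a in INPUT (0.00802) and the difference of effects for Adra2c (0.0169). With single libraries left out, stress over naïve ran from −0.0841 to 0.0811 for Adra2c, −0.18 to 0.0517 for Adra1b and −0.14 to 0.0554 for Adra2a in IP, from −0.0154 to 0.0416 for Adra2c, −0.00978 to 0.24 for Adra2a and −0.0468 to 0.0604 for Adra1a in INPUT, and from −0.098 to 0.0669 for the difference of effects in Adra2c. Counts over all genes moved more: 55 genes in IP became 143 with array weights, 19 with no variance trend, 124 with all 16 libraries and 17 to 122 with 1 left out. The 6 genes in INPUT became 50 with array weights, 0 by limma with no variance trend (727 at an unadjusted p under 0.05), 2 with all 16 libraries and 1 to 32 with 1 left out, and the 3 genes of the difference became 19 with array weights and 2 to 28 with 1 left out. The causes were not tested. No paired analysis was possible because the labels give no number that ties an IP to an INPUT library. Depth limits Adra2b in all libraries and Adrb3 in IP, which had at most 8 reads.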
